A study of Mus musculus with 24 samples.

Results

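Collagens and fibronectin are the main fibrous proteins of the extracellular matrix, and the methylation of DNA fragments assigned to 9 collagen genes (Col3a1, Col5a1, Col5a2, Col6a3, Col9a1, Col9a3, Col11a1, Col19a1 and Col20a1) and to the fibronectin gene Fn1 was examined in mouse brown adipose tissue (BAT). The members were all fragments that the authors' annotation gives to these 10 genes, which were 301 of 65535 fragments. Of these, 56 had enough calls to be tested, in 9 of the 10 genes, and Col20a1 had none. Near the gene starts the tested fragments were methylated at low levels, and most of those inside the genes and upstream of them were methylated at high levels. No fragment differed between exposure groups after adjustment for multiple testing.

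The libraries were made by reduced representation bisulfite sequencing (RRBS), in which DNA is cut with MspI at CCGG, treated with bisulfite and sequenced, so that each CpG in a read is called as methylated or not methylated. There were 12 DDT and 12 vehicle (VEH) libraries, all of genotype C57BL/6J, all female and all from postnatal day (PND) 12. Dams of the DDT group were gavaged from mid-gestation until shortly after birth with DDT (p,p'-DDT and o,p'-DDT together) in olive oil, and dams of the VEH group with the oil alone. BAT was pooled from littermates for each library, which makes the litter the replicate, and a level averages over all cell types in the tissue. Bisulfite calls hold no RNA levels, so the tissue label was not checked against marker genes.

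Collagens are built from chains with a repeated Gly-X-Y motif that wind into a triple helix. Type III collagen (Col3a1) forms fibrils in soft tissues and vessel walls, and types V (Col5a1, Col5a2) and XI (Col11a1) are minor fibrillar collagens that join such fibrils and set their width. Type VI collagen (Col6a3) forms beaded microfilaments around adipocytes, types IX (Col9a1, Col9a3), XIX (Col19a1) and XX (Col20a1) belong to the family that associates with fibrils, and fibronectin is a secreted dimer that binds integrins and collagen and is assembled into fibrils by cells. In mammals, CpG islands at active or poised promoters usually lack methylation, whereas the bodies of genes and the DNA between them are usually methylated.

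The fragments on which the results turn are printed here from the RefSeq sequence of GRCm38, plus strand, with each CpG in capitals. The first is the island fragment upstream of the Col5a1 start, the next pair lies in the first part of the Col5a2 gene, and the next set is a run of copies in a Col5a1 intron. The Fn1 and Col11a1 pairs adjoin at 1 MspI site each and differ in level. The last 3 are the Col6a3 coding exon with the small p, a Col9a3 fragment of low level inside the gene and a CpG-rich Fn1 coding exon.
Col5a1 island, chr2:27886226-27886303: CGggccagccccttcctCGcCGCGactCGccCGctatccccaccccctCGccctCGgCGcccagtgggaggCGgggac
Col5a2 intron, chr1:45502564-45502652: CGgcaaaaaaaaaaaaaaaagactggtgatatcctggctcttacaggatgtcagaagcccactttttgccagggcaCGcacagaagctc
Col5a2 intron, chr1:45502509-45502563: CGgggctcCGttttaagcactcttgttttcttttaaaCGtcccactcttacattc
Col5a1 intron, first copy, chr2:27893959-27893999: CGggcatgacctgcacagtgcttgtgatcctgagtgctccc
Col5a1 intron, second copy, chr2:27894000-27894040: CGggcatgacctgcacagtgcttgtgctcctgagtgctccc
Fn1 upstream, first, chr1:71838134-71838181: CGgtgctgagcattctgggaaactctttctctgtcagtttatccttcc
Fn1 upstream, second, chr1:71838182-71838388: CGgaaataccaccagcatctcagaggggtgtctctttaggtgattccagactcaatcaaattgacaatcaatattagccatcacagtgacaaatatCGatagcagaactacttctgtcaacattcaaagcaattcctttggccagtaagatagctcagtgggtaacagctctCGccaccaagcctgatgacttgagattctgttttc
Col11a1 upstream, first, chr3:112584486-112584515: CGggaCGagaggacccaggaggagaaatcc
Col11a1 upstream, second, chr3:112584516-112584547: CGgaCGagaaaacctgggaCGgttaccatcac
Col6a3 coding exon, chr1:90802338-90802392: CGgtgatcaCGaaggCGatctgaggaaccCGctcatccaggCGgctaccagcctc
Col9a3 exon boundary, chr2:180609389-180609532: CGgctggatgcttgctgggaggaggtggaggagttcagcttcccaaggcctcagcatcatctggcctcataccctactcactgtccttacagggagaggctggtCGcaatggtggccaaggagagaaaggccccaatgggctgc
Fn1 coding exon, chr1:71609492-71609592: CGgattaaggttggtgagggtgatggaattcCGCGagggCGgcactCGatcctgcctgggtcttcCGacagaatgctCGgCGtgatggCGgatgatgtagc

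Levels are methylated calls as a percentage of all calls in a fragment and are given only for libraries with 10 or more calls. Fragments with such a level in 8 or more libraries per group were tested. These were 20225 of the 65535 fragments (30.9%) and 18.6% of the member fragments. Libraries held between 8371958 and 13768991 calls in VEH and between 9895508 and 14124652 in DDT. Several DDT libraries stood apart: DDT replicate 4 had a level in 13 of the 56 member fragments, DDT replicate 3 in 43 and DDT replicate 12 in 46, whereas the VEH libraries had between 52 and 56. The deposited library number of DDT replicate 12 also lies outside the unbroken run of numbers of the other libraries, and the labels do not say why. Leaving out 1 library turned the sign of the difference between groups in 28 of the 56 member fragments, and turned it or moved it by over 1.5 times in 50. Calls come from PCR reads without molecular identifiers, so intervals on calls cover counting error only.

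Promoter fragments, with a midpoint within 1000 bp of the gene start in GENCODE M21, were tested in 3 genes. All 8 of them, out of 17, had a mean VEH level under 20%, between 2.12% and 19.5%, with a median of 7.71%. Over all genes, 95.6% of 6704 tested promoter fragments were under 20%. The 3 genes were Col5a1, Col5a2 and Col11a1. Those of Col9a1 and Col9a3 were covered too thinly for the test, and Col3a1, Col6a3, Col19a1, Col20a1 and Fn1 had no promoter fragment.

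The Col5a1 start (gene chr2:27886425-28039514, plus strand) was the most densely covered, with 5 tested fragments that the authors class as CpG island core. The fragment with its midpoint 160 bp upstream has 10 CpGs, and its level in the 12 VEH libraries had a lowest value of 5.93%, a median of 12.1% and a highest value of 21.0%. In the 12 DDT libraries these were 0%, 9.93% and 19.8%, so that the groups overlapped through most of their range. DDT replicates 4 and 12, which had 990 and 837 calls there, were the lowest DDT libraries at 0% and 0.478%. The difference between DDT and VEH was -1.67 percentage points (95% interval -6.21 to 2.88) with all libraries and 0.37 without those 2.

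The other 4 Col5a1 island fragments lie in the first exon and first intron. At 346 bp into the gene the VEH level was 2.12% ± 0.75 (SD, n = 12), the lowest of all member fragments, and the DDT level was 2.06% ± 0.92 (SD, n = 12). The fragments at 552 and 611 bp had VEH means of 5.07% and 3.04%, and the last, at 660 bp, 10.3%. The mean at 552 bp included VEH replicate 2 at 27.9%, from 61 calls, whereas the median was 2.79%. A transcript annotated as 2810430I11Rik overlaps all of these fragments but the last.

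Col5a2 (chr1:45374321-45503282, minus strand) had 2 tested promoter fragments, both in an intron and outside the islands, and they adjoin. The fragment at 674 bp had a lowest VEH level of 8%, a median of 19.8% and a highest of 32.3%, and its neighbour at 746 bp 0%, 2.72% and 13.3%. The fragment nearer to the start was the higher in each of the 22 libraries with a level in both, by 16.8 percentage points on average (SD 10.5). In DDT, the fragment at 746 bp had a median of 3.85%, and DDT replicate 3 stood at 57.9% from 19 calls, above every other library.

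The Col11a1 promoter (gene chr3:114030540-114220718, plus strand) had 1 tested fragment, 641 bp into the gene. Its VEH level had a lowest value of 5%, a median of 10.5% and a highest of 20% over 10 libraries, and its DDT level had 4.35%, 8.34% and 25% over 10 libraries. The groups overlapped fully. Its calls were few, between 15 and 61 in the VEH libraries used.

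Promoter fragments that were not tested are described by their summed calls, with Wilson 95% intervals. Col9a3 (chr2:180597790-180622189, plus strand) had 4, which step away from the start. At 406 bp the summed VEH level was 8.82% (4.71 to 15.9, 102 calls), at 526 bp 18.1% (13.5 to 24, 204 calls) and at 633 bp 13% (9.81 to 17.0, 339 calls). The last fragment, at 733 bp, was much higher, at 60.2% in VEH (50.3 to 69.3, 98 calls) and 43.2% in DDT (34.8 to 52.0, 125 calls). The single promoter fragment of Col9a1 (chr1:24177610-24252684, plus strand) lies 844 bp upstream and had only 13 VEH calls, of which 92.3% (66.7 to 98.6) were methylated.

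**Figure D1:**
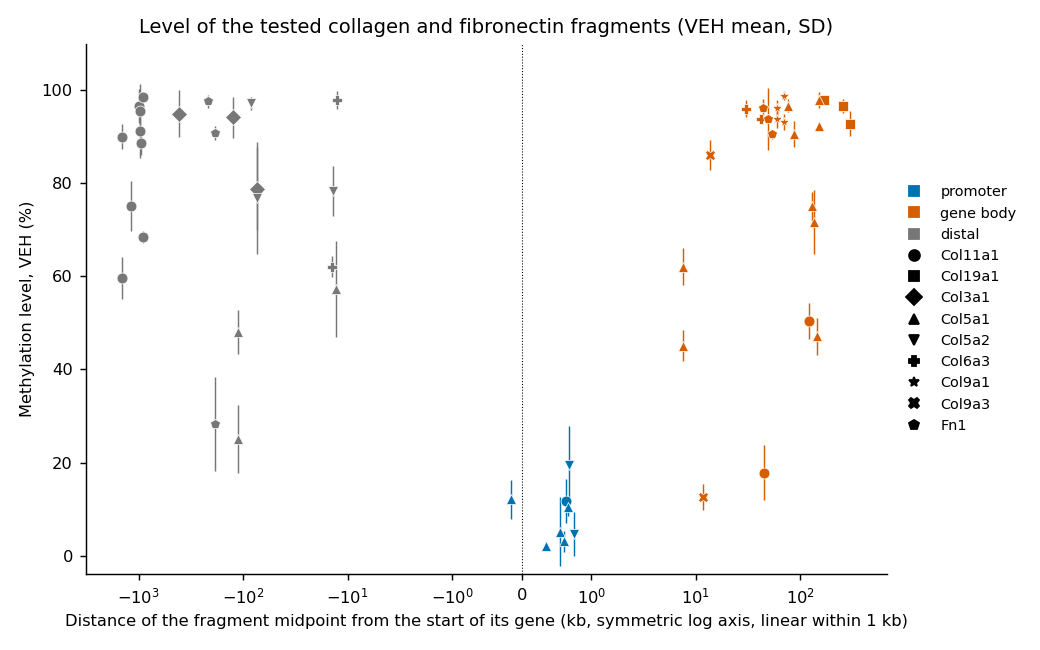
Mean level in VEH with SD (vertical axis, %) of the 56 tested fragments against the distance of the fragment midpoint from the start of its gene (horizontal axis, kb, symmetric log scale, upstream negative). Colours mark promoter, gene body and distal fragments, and symbols mark genes. All tested promoter fragments lie under 20%, and gene body fragments range from 12.5% to 98.8%.

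Gene body fragments, inside the gene and more than 1000 bp from its start, were higher. Of 25 tested in 7 genes, 17 had a mean VEH level over 80%, 6 lay between 20 and 80% and 2 under 20%, with a median of 92.9%. Over all genes, 34.1% of 5420 tested gene body fragments were over 80% and their median was 49.1%. Part of that contrast goes with CpG islands: none of the 25 member fragments was in an island core, against 7.34% of all gene body fragments, and outside islands the median over all genes was 60%. The level of the members is a description, since no test was made over the list.

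The bodies of Col6a3, Col9a1, Col19a1 and Fn1 had VEH means over 90% at all tested positions. In Col6a3 (chr1:90765923-90843971, minus strand) the 2 tested fragments, both in coding exons, had VEH means of 94.0% and 96.1%. In Col9a1 the 4 ran from 93.3% to 98.8%, and in Col19a1 (chr1:24261890-24587472, minus strand) 3 intron fragments ran from 92.9% to 97.9%. In Fn1 (chr1:71585520-71653200, minus strand) 3 coding exon fragments ran from 90.6% to 96.3%. The untested fragments inside these genes, most with few calls, were lower in VEH when summed by gene. The 16 of Col19a1, of which 8 had no calls, were at 40% (30.0 to 51.0, 80 calls) in VEH and 55.2% (43.4 to 66.5, 67 calls) in DDT. The 7 of Col9a1 were at 76.3% (70.1 to 81.6, 207 calls) in VEH and 92.4% (88.7 to 94.9, 288 calls) in DDT. These Col9a1 sums weigh the fragments differently in each group. The fragment 70062 bp in, at 96.7% in VEH and 100% in DDT, gave 121 of the VEH calls and 221 of the DDT calls. The remaining untested fragments with calls were each higher in DDT as well, from few calls. The best covered of them, 19313 bp in, was at 47.9% in VEH (48 calls) and 59.5% in DDT (37 calls). Whether the Col9a1 gap between groups goes with the weights was not tested. The untested fragments of Fn1 were at 79.1% in VEH and 94.1% in DDT, and those of Col6a3 at 82.6% and 87.2%.

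The Fn1 coding exon fragment printed above shows how dense CpGs were methylated there. It holds 9 CpGs in 101 bp, less dense than the Col5a1 island fragment with 10 CpGs in 78 bp. Its VEH level had a lowest value of 93.8%, a median of 96.1% and a highest value of 100%, and its DDT level had 87.2%, 97.0% and 98.1% over 11 libraries. Over the 56 member fragments the level did not follow CpG content, with a Spearman rho of 0.15 between level and number of CpGs, against -0.55 over all 20225 tested fragments. These are correlations across fragments of the same libraries, and fragments are not independent replicates. The sets also differ in make-up, since island cores were 8.93% of the tested members and 35.1% of all tested fragments. Whether the contrast goes with that was not tested.

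Col5a1 was a mosaic. Its 9 tested gene body fragments ran from 45.1% to 97.9% in VEH. In the intron 7554 and 7595 bp from the start the printed copies had means of 62.1% and 45.1%, and fragments 76382 and 86875 bp in had 96.7% and 90.7%. Between 130186 and 145286 bp the level was intermediate, at 75.1%, 71.8% and 47.1%, and in the last exon, in the 3' UTR, it was 92.4% and 97.9%. In each of these fragments the SD over the 12 VEH libraries was at most 6.91 percentage points, so that the intermediate levels were found from litter to litter.

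Col9a3 and Col11a1 held the 2 gene body fragments under 20%. The Col9a3 fragment, across an exon boundary 11670 bp into the gene, had a lowest VEH level of 7.69%, a median of 12.4% and a highest of 16.2%. In DDT these were 6.67%, 14.7% and 23.5%, with the highest value in DDT replicate 12 from 17 calls. A coding exon fragment 13690 bp in, about 2 kb further, had a VEH mean of 86.1% ± 3.3 (SD, n = 12).

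In Col11a1 the fragment 45262 bp in, in an intron, had VEH levels with a lowest value of 8.41%, a median of 16.6% and a highest value of 29.4%. The coding exon fragment 122130 bp in stood between the other classes, with 44.1%, 49.7% and 56.2%. In both, the DDT mean was lower, with differences of -1.84 and -3.20 percentage points and 95% intervals of -6.36 to 2.68 and -7.57 to 1.17 that include 0. In the exon fragment this depended on DDT replicate 12, which was at 60% from 30 calls. Without it the difference was -4.48 (95% interval -8.23 to -0.72, unadjusted p = 0.0219 by the F test of the ANOVA), and without DDT replicate 3 it was -2.11 (-6.10 to 1.89). In the intron fragment it was -0.79 without VEH replicate 11, at 29.4% from 17 calls.

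Col3a1 (chr1:45311538-45349706, plus strand), Col5a2 and Col20a1 (chr2:180986535-181018363, plus strand) had no tested gene body fragment. All 4 Col20a1 fragments lie inside the gene, and together they had 15 VEH calls, 73.3% methylated (48.0 to 89.1), and 32 DDT calls, 71.9% methylated (54.6 to 84.4). The 6 untested Col5a2 fragments were covered unevenly: 4 had no calls, and the rest together gave 94.6% in VEH (91.5 to 96.6, 313 calls) and 96.2% in DDT (94.5 to 97.4, 691 calls). The only Col3a1 fragment inside the gene had 5 VEH calls.

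Distal fragments were the largest class, with 173 of the 301, and many lie far from the gene whose name they carry. The Col11a1 fragments reach 1755240 bp and the Col3a1 fragments 508640 bp upstream. Of the 84 Col11a1 fragments, 68 were nearer to the start of the amylase gene Amy2a5, and of all 301 fragments 118 were nearer to the start of another gene. They are read here as DNA assigned to these genes and not as regulatory regions of them.

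Of the 23 distal fragments tested, 12 had a VEH mean over 80% and 11 lay between 20 and 80%, and none was lower. The 9 of Col11a1 ran from 59.7% to 98.5%, the 3 of Col3a1 from 78.9% to 95%, the 3 of Col5a2 from 76.9% to 97.2% and the 2 of Col6a3 were at 62.1% and 97.9%. The 3 of Col5a1 were the lowest as a group, from 25% to 57.2%. The 3 of Fn1 spanned the widest range, from 28.3% to 97.7%.

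Some intermediate levels varied little between litters. At Col11a1 chr3:113127653-113127695, a fragment 902866 bp upstream that was picked out after its values were seen, the VEH level had a lowest value of 66.7%, a median of 68.5% and a highest value of 70.8%. In DDT, over 11 libraries, these were 66.8%, 68.9% and 70.6%. The SD over VEH litters, 1.22 percentage points, was 0.718 of the SD that counting alone would give if all calls were independent. The fragment has 3 CpGs and its calls in each library were a multiple of 3, so calls of a read may be linked. Whether its level mixes CpGs of unlike levels was not tested. The difference between DDT and VEH was 0.18 percentage points (95% interval -0.96 to 1.33).

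Adjoining fragments, which end and begin at the same MspI site, often had unlike levels. Among the members there were 11 tested pairs, with a median absolute difference of 14.8 percentage points in VEH, and 4 pairs differed by over 20. Over all genes, the median of 7076 pairs was 5.58 and 11.3% differed by over 20. In the Col5a1 pair at chr2:27774718, VEH replicate 1 had 130 calls on the first and 133 on the second fragment. In the Col11a1 pair at chr3:113127653 it had 654 and 213, and VEH replicate 4 had 957 and 311. In the pair at chr3:112584486 they had 600 and 1134, and 282 and 868, which kept no such proportion. Whether both levels of a pair come from the same 50 bp reads was not tested.

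The widest step was in Fn1, 184958 bp upstream of the start, where the first fragment had a VEH mean of 28.3% and the second one of 90.8%. The second was the higher in each of 20 libraries, by 57.4 percentage points on average (SD 16.7). The summed calls of both were close, 862 and 837, and in VEH replicate 1 both had 73. The first has 48 bp and 1 CpG, and the second 207 bp and 3 CpGs. Which of these CpGs the calls of the second cover was not tested.

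In Col11a1, 1446040 bp upstream, the first fragment had a VEH mean of 90.1% and the second 59.7%, and the second was lower in each of 23 libraries. In the pair at 902866 bp the step went up, from 68.5% to 98.5%, in each of 23 libraries. The Col5a1 pair 111689 bp upstream stepped down from 48.0% to 25%, in 22 of 23 libraries. The exception there was a DDT library.

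**Figure D2:**
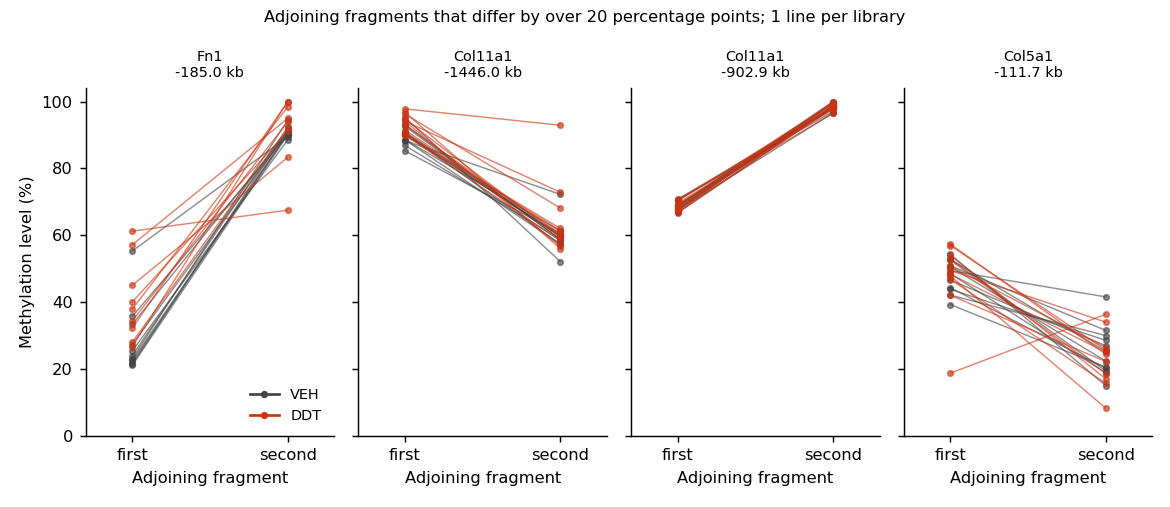
Methylation level (vertical axis, %) of the first and the second of 2 adjoining fragments, 1 line per library, for the 4 pairs of member fragments that differ by over 20 percentage points in VEH. Grey lines are VEH and red lines DDT libraries, and nearly all lines of a panel slope the same way.

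The Col5a1 intron holds 4 adjoining copies of 41 bp, at chr2:27893959-27894122, with a single CpG each. The first copy differs from the others at 1 base, and those others are identical. All calls were on the first 2 copies, 9804 and 9904 over the 24 libraries, and the last 2 had none. In VEH replicate 1 the first 2 had 570 and 583 calls, and in DDT replicate 12 both had 88. Whether the second level belongs to that copy, to the identical ones behind it or to reads of the first was not tested. In VEH the first copy had a lowest level of 55.5%, a median of 62.7% and a highest of 69.9%, and the second 38.5%, 45.4% and 50.4%, so that the copies did not overlap there. Over both groups the second copy was lower in 22 of 23 libraries.

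Longer arrays had no calls at all. In an intron of Col19a1, 5 fragments at chr1:24496347-24496918 alternate between 156 and 52 bp with a period of 208 bp, and their copies differ from each other at no more than 7 bases. Upstream of Col3a1, 7 fragments at chr1:45205197-45205976 show the same pattern of lengths, with copies that differ at no more than 7 bases, and the arrays hold the same repeat on opposite strands. Set against the reverse complement of the Col19a1 array without gaps, the Col3a1 array was identical at 561 of 572 bases (98.1%). All 12 fragments had 0 calls in all 24 libraries. In all, 103 of the 301 member fragments (34.2%) had no calls in any library, against 24.5% of all fragments, and 44 of those 103 were assigned to Col3a1 and 40 to Col11a1.

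The contrast of promoter and gene body was then followed library by library, as the mean over genes of each. In VEH the promoter mean was 10.1% ± 2.1 (SD, n = 12) and the gene body mean 77.0% ± 0.85 (SD, n = 12). The promoter was the lower in each of the 12 libraries, by between 63.1 and 71.0 percentage points. In DDT the promoter mean was 11.2% ± 8.2 (SD, n = 12), the gene body mean 78.7% ± 5.9 (SD, n = 12), and the promoter was again the lower in all 12.

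The wider DDT range came from few libraries. DDT replicate 3 had a promoter mean of 32.8%, carried by the Col5a2 value from 19 calls, and DDT replicate 4, with 13 fragments, had a promoter mean of 0.065% and a gene body mean of 96.7%. The mean step in DDT was -67.5 percentage points with all libraries, -69.7 without DDT replicate 3 and -63.9 without DDT replicates 4 and 12, against -66.9 in VEH. The genes on the 2 sides were not the same, and in the 2 genes with both kinds, Col5a1 and Col11a1, the step in VEH was -45.8 percentage points. Over all 726 genes with both kinds it was -46.5.

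**Figure D3:**
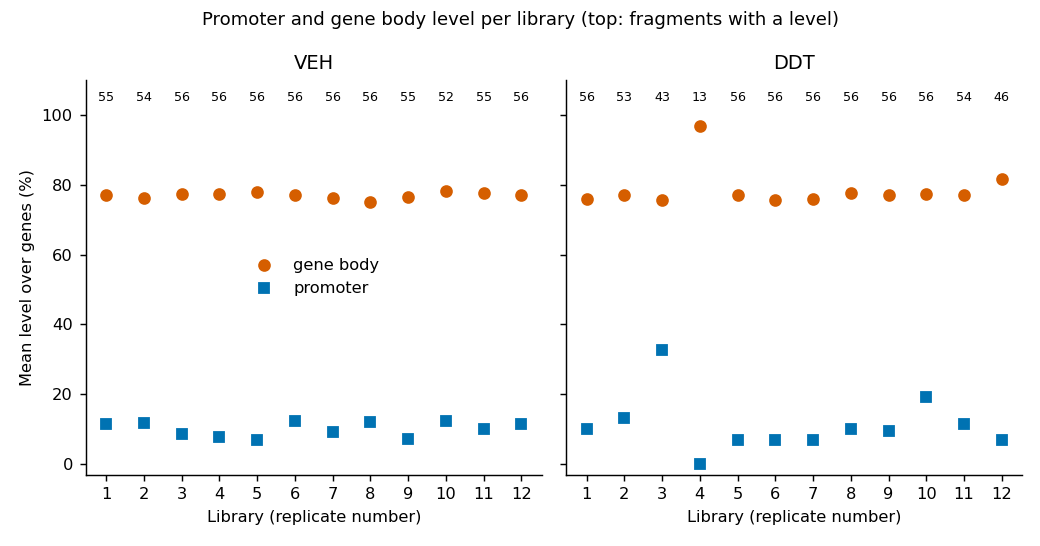
Mean level over genes (vertical axis, %) of the promoter (blue squares) and gene body (orange circles) fragments of the members in each library, by replicate number, VEH left and DDT right, with the number of the 56 fragments that had a level printed above. Gene body means lie between 75.1% and 78.2% in VEH, and DDT replicates 3 and 4 stand apart.

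The comparison of DDT with VEH asked whether exposure before and after birth changed these levels. No member fragment had an adjusted p under 0.05 (F test of an ANOVA, adjusted by Benjamini-Hochberg over 20225 fragments), nor did any other fragment in the table, where 0% were called. Among the members the lowest adjusted p was 0.869. Before adjustment, 4 of 56 member fragments (7.14%) had a p under 0.05, against 845 of all tested fragments (4.18%). With limma on the log ratio of calls there were 4 as well, 3 of them the same fragments, against 709 of all tested fragments. None passed after adjustment. All 4 of the ANOVA and 3 of the 4 of limma were higher in DDT. Among all fragments, the ANOVA called 1.25% as higher and 2.93% as lower.

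Most differences were small. DDT was higher in 30 and lower in 26 of the 56 fragments, with a median difference of 0.05 percentage points, against -0.16 over all tested fragments, of which 56.9% were lower in DDT. The difference was under 5 percentage points in 54 fragments. The exceptions were an Fn1 fragment at 12.5 and the Col11a1 fragment chr3:113044960-113045014 at -6.23. The latter rested on DDT replicate 4, at 50% from 28 calls, and the difference was -1.17 (95% interval -5.98 to 3.64) without that library. Among promoter fragments the differences ran from -1.88 to 3.36, and 1 library carried each end. The highest, in Col5a2 at 746 bp, was -1.63 without DDT replicate 3, and the lowest, in Col5a1 at 552 bp, was 0.19 without VEH replicate 2. Among gene body fragments they ran from -3.20, in the Col11a1 exon fragment described above, to 4.88, in the first Col5a1 copy, which was at 2.49 without DDT replicate 12, at 90.9% from 88 calls.

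**Figure D4:**
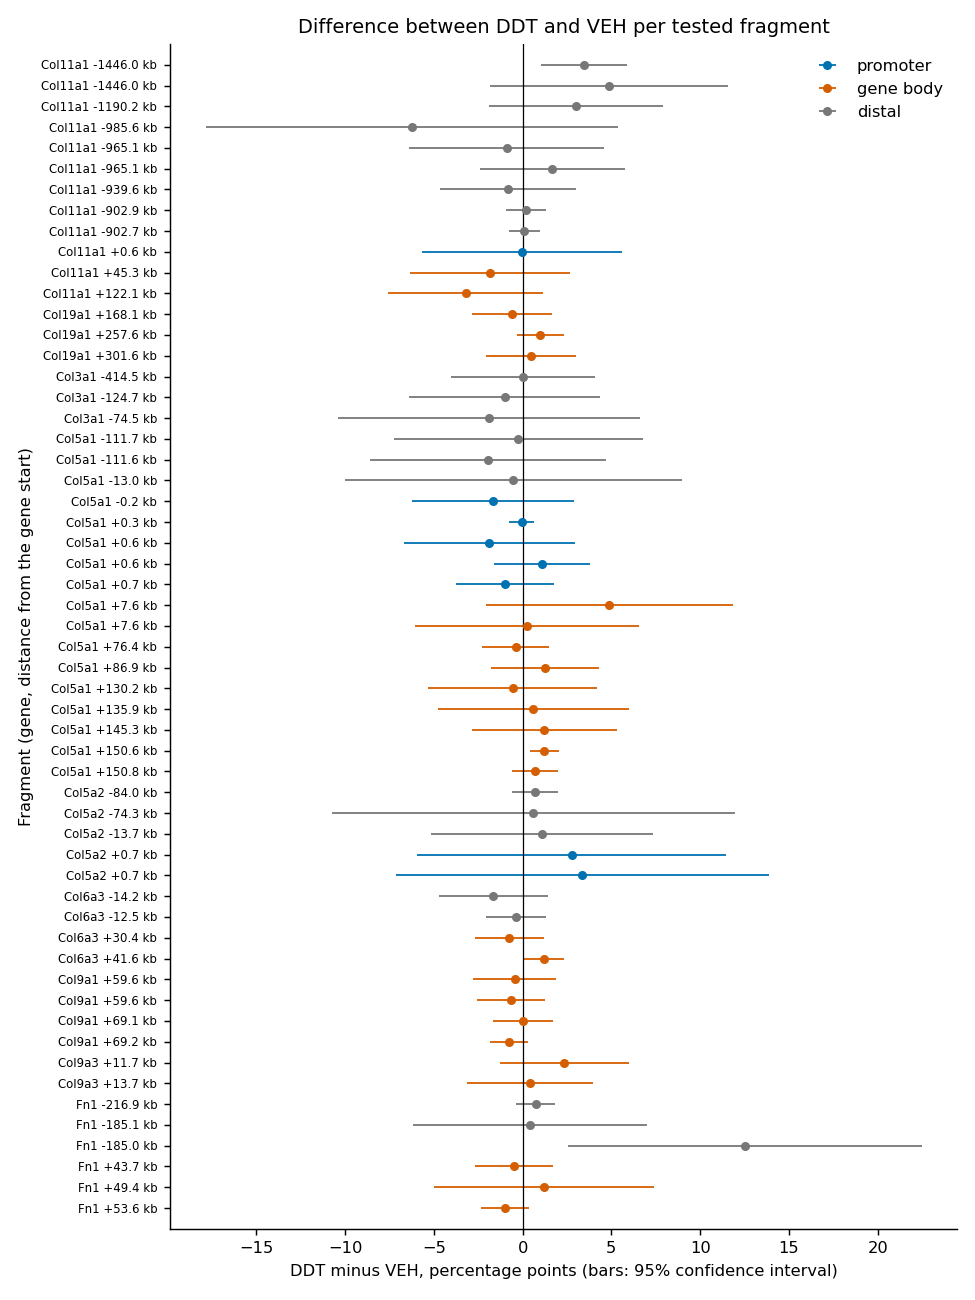
Difference in mean level between DDT and VEH (horizontal axis, percentage points, DDT minus VEH) with its 95% confidence interval for each of the 56 tested fragments (vertical axis, gene and distance from the gene start in kb). Colours mark promoter, gene body and distal fragments, and 4 intervals lie above 0.

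The largest difference was in the first of the Fn1 pair printed above, chr1:71838134-71838181, a fragment with 1 CpG that lies 184958 bp upstream of the gene. In 11 VEH libraries the lowest level was 21.1%, the median 24% and the highest 55.3%. In 10 DDT libraries these were 26.7%, 38.9% and 61.2%. All 10 DDT libraries lay above the VEH median, but the groups overlapped, since VEH replicate 8 was higher than all but 2 of the DDT libraries.

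The means in that fragment were 28.3% ± 10.2 (SD, n = 11) and 40.8% ± 11.6 (SD, n = 10), a difference of 12.5 percentage points with a 95% interval of 2.57 to 22.5. The unadjusted p was 0.0164 (permutation p = 0.0181) and the adjusted p 0.869. Between 11 and 80 calls stood behind each level. DDT replicates 3 and 4 had no level there, and without DDT replicate 12, which was the highest, the difference was 10.2 (unadjusted p = 0.0344 by the F test of the ANOVA). Its neighbour differed by 0.43 (95% interval -6.16 to 7.02) with all libraries. Without DDT replicate 12, which was at 67.5% there from 77 calls, it differed by 3.39 (95% interval -0.31 to 7.10).

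In Col5a1, the fragment chr2:28037033-28037097 in the last exon had a lowest VEH level of 91.6%, a median of 92.2% and a highest of 94.4% over 12 libraries. In 11 DDT libraries these were 92.3%, 93.4% and 95.2%, so that all 11 lay above the VEH median while the groups overlapped. The difference was 1.23 percentage points (95% interval 0.43 to 2.03), with an unadjusted p of 0.00428 and a permutation p of 0.00534. At between 188 and 1444 calls per library this was among the better covered member fragments. Its neighbour in the same exon differed by 0.71 (95% interval -0.58 to 2), and by 0.35 without VEH replicate 8.

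In Col11a1, the fragment chr3:112584486-112584515, which is nearer to Amy2a5 than to Col11a1, had a lowest VEH level of 85.3%, a median of 90.3% and a highest of 95.3%. In 11 DDT libraries these were 89.9%, 94.1% and 97.9%, with 9 above the VEH median. The difference was 3.47 percentage points (95% interval 1.05 to 5.89), with an unadjusted p of 0.0071 and a permutation p of 0.0086. Its neighbour differed by 4.88, with a wider interval of -1.82 to 11.6, and DDT replicate 12 stood there at 93.0%, above all other libraries. Without it the neighbour differed by 2.30 (95% interval -1.94 to 6.54).

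In Col6a3, the coding exon fragment chr1:90802338-90802392, with 5 CpGs, had a lowest VEH level of 93.1%, a median of 93.9% and a highest of 94.9%. In DDT these were 92.9%, 95.3% and 100%, with 9 of 12 libraries above the VEH median. The difference was 1.19 percentage points (95% interval 0.05 to 2.34), with an unadjusted p of 0.0417 and a permutation p of 0.0229. The value of 100% was DDT replicate 4, from 3186 calls, and without DDT replicate 4 the difference was 0.75. That library had a median of only 2 calls over the tested member fragments and 35 over all tested fragments. Most of its levels in the members lay near 0% or 100%. With any single library left out, the unadjusted p ran from 0.0168 to 0.0647.

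**Figure D5:**
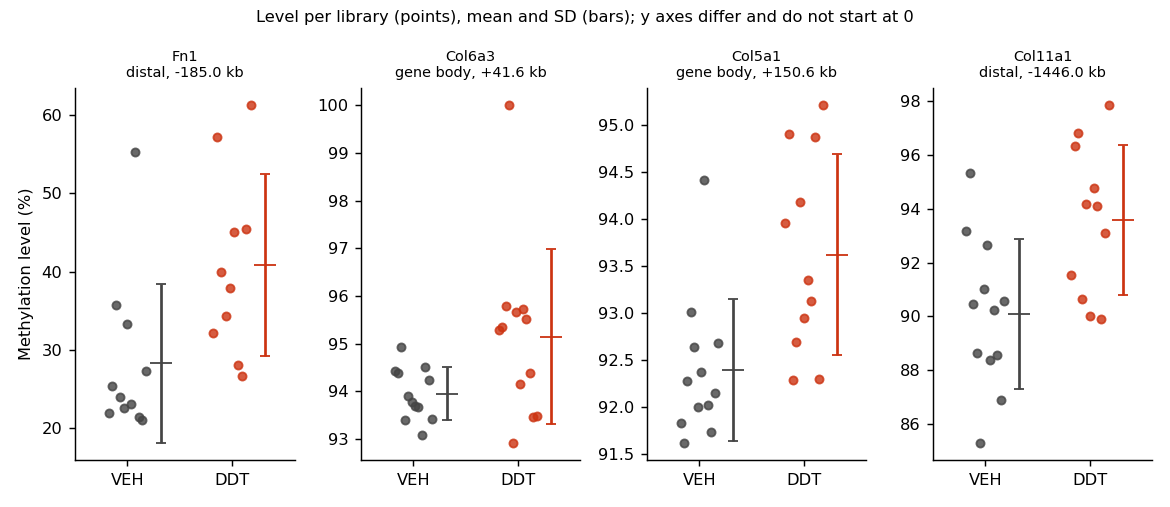
Methylation level per library (points, vertical axes in %, not starting at 0 and different in each panel) in VEH (grey) and DDT (red) for the 4 member fragments with an unadjusted p under 0.05, with mean and SD as bars. In each panel the DDT mean is higher and the groups overlap.

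The spread between litters was wider in DDT. The median SD over the 56 fragments was 2.95 percentage points in VEH and 4.43 in DDT, and the DDT SD was the larger in 46 fragments (82.1%), against 79.2% of all tested fragments. Without DDT replicates 4 and 12 the median DDT SD was 3.42 and the DDT SD was the larger in 30 fragments (53.6%), against 60% of all. The wider spread of the members was thus found over the whole table and shrank without those libraries.

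Other genes of matrix biology in the table gave no adjusted p under 0.05 either. Of the other collagens, Col4a3, Col4a4 and Col25a1 had 14 tested fragments, with 0 at an unadjusted p under 0.05, and the smallest p was in the Col4a3 body (27.9% in VEH and 35.3% in DDT, p = 0.104). Col4a3 and Col4a4 encode chains of basement membrane collagen. Genes of collagen folding, crosslinking and secretion had 40 tested fragments in 4 genes, with 1 at that p, in Creb3l1, a transcription factor of the secretory pathway (91.9% in VEH, 97.3% in DDT, p = 0.00552).

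Receptors of the matrix had 44 tested fragments in 8 genes, with 1 at that p, at the island promoter of Itgav, an integrin chain that binds fibronectin (2.81% in VEH, 1.52% in DDT, p = 0.045, and 0.0765 without DDT replicate 4). Other matrix proteins had 94 in 17 genes, with 1 higher and 5 lower in DDT, and the smallest p at the island promoter of Npnt, an integrin ligand of basement membranes (2.71% in VEH, 3.74% in DDT, p = 0.0106). Proteases of the matrix had 18 in 5 genes and 0 at that p, and the smallest was in the Adamtsl4 promoter (p = 0.0521, and 0.0233 without DDT replicate 4). The shares of 0%, 2.5%, 2.27%, 6.38% and 0% stand beside 4.18% over all fragments.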

How the data were processed

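RRBS calls of BAT from infant female mice were analysed in 12 DDT and 12 VEH libraries, grouped by their labels. Per the study's methods, 50 bp single-end reads were trimmed with Scythe and Sickle and aligned to GRCm38 with Bismark 0.15.0 and Bowtie 2. The authors deposited, per MspI fragment and library, the count of methylated calls and the count of other calls, not normalized, with a gene, region and island class for each fragment. The tool that made the fragments and the annotation release are not given in the sources used here. The table used has 65536 lines including the header and ends inside chromosome 3, and the rest of the genome was not analysed here.

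Levels were computed from these counts (minimum 10 calls per library, 8 libraries per group). The study's statistics name the F test of an ANOVA with Benjamini-Hochberg correction, which was run over 20225 fragments at a threshold of 0.05. Its differential methylation package was not run. For single fragments the mean difference was also permuted 100000 times, two-sided, or exactly where a group had fewer than 10 libraries. Promoter, gene body and distal classes used GENCODE M21 gene starts and a window of 1000 bp.

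The text names, per gene, the tested fragment nearest to the start, the gene body fragments with the lowest and highest VEH level, and those with an unadjusted p under 0.05, and from each other list the fragment with the smallest p. The remaining Col5a1, Col5a2 and Col11a1 fragments, the adjoining pairs, the arrays and the untested promoters were named after their values were seen. The members and the gene lists were chosen with earlier results of these data known.

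Alternatives were limma on log2((methylated + 1) / (not methylated + 1)), quasi-binomial logistic regression, call minimums of 5 and 20, all calls of the library as a covariate, replicate number as a block, and leaving out each library. Leaving out DDT replicates 4 and 12 together, and keeping only genes with both classes, were added after seeing the data. The tests were tested on simulated calls first. Among all pairs of libraries, the closest had a mean chi-square of 1.72 per fragment, so no library was counted as a repeat of another. R 4.3.3 (limma 3.58.1) and Python 3.11.15 (SciPy 1.17.1, pandas 2.3.3, NumPy 2.4.6, matplotlib 3.10.9) were used.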

Additional observations from a re-analysis of the deposited data

Results flagged for a closer look

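In groups of up to 10 libraries, 3 of 23 groups of tested member fragments held a library far from the others by Dixon's criterion. For normal values chance alone gives about 1 in 20. These levels are percentages from unequal numbers of calls, many of them near 100%, so that rate may not hold here. No share over all fragments stands beside the count. In the Fn1 coding exon fragment chr1:71603739-71603799, DDT replicate 6 was at 80% from 20 calls, and the other DDT libraries ran from 94.8% to 98.4%. In the Col11a1 distal fragment chr3:112840301-112840367, DDT replicate 12 was at 64.3% from 56 calls, below the other DDT libraries at 75.8% to 82.6%. In the Col11a1 distal fragment chr3:113044960-113045014, DDT replicate 4 was at 50% from 28 calls, and the others ran from 84.8% to 100%. That fragment had the most negative difference among the members, -6.23 percentage points (exact permutation p = 0.31), which was -1.17 without that library.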

How the results depend on the processing

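No fragment of the table passed an adjusted p under 0.05 in any setting tried, limma and the quasi-binomial regression included. At an unadjusted p under 0.05 the regression gave 8 of 56 member fragments, 4 of them higher in DDT, and 1562 of 20225 over the table. The ANOVA gave 4 of 56 and 845 of 20225. The 12 member fragments with levels in all 24 libraries gave 1, since fewer fragments were tested. Over the table, 10399 fragments had such levels and 441 of them had that p. With a library left out the member count ran from 3 to 7, the highest without DDT replicate 12, and it was 6 without DDT replicates 4 and 12 together. The count over the table ran from 748 to 1083 with a library left out. It was 895 without DDT replicate 12 and 903 without DDT replicates 4 and 12. The median difference over the members was -0.25 percentage points for levels in all 24 libraries and 0.35 without both libraries. limma works on a log ratio and gives no such median in percentage points.

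The replicate numbers are shared by both groups, and with the number as a block 4 member fragments had an unadjusted p under 0.05, 3 of them as without the block, and 0 an adjusted one. The numbers did not pair the samples: the correlation of deviations of libraries with the same number ran from -0.15 to 0.18, was over 0.1 in 3 of 12, and 1 library pair was closest to its own number. No fragment passed the adjusted threshold without the block either, so that count could not show an effect of the block.

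The promoter minus gene body step kept its sign throughout. In VEH it was -58.8 with a window of 500 bp, -70.4 at 20 or more calls, -80.6 from summed calls, -83.9 for levels in all 24 libraries and -45.8 for genes with both classes. In DDT it was -83.2 from summed calls, -85.3 for levels in all 24 libraries and -50.7 for genes with both classes. The genes that enter differ between these settings.

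Some differences near 0 changed sign, none of them past the threshold. Under limma the Col19a1 fragments 301626 and 168138 bp in had log2 differences of -0.073 and 0.015. Under the regression the Col9a1 fragment 59569 bp in was at 0.145, the Col19a1 fragments at -0.0104 and 0.179, Col5a2 at 674 bp at -0.268, the Fn1 exon of 9 CpGs at 1.15, Col6a3 12539 bp upstream at 0.128, the second Col5a1 copy at -1.85 and Col11a1 at 45262 bp at 0.016. At 5 calls, Col9a1 at 69095 bp was at -2.41 and Col11a1 at 45262 bp at 2.77. At 20 calls, Col9a1 at 59569 bp was at 0.377, Col19a1 at 301626 bp at -0.196 and the Col11a1 promoter at 0.376. With the depth covariate the second Col5a1 copy was at -0.253. Without DDT replicates 4 and 12, Col19a1 at 168138 bp was at 0.474, the Col5a1 island fragment at 0.372, the second Col5a1 copy at -2.37, Col9a3 at 13690 bp at -0.381 and the Col11a1 promoter at 0.336.

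With each library left out, sign changes arose within these ranges. Col9a1 ran from -0.835 to 0.377 at 59569 bp and from -0.297 to 0.471 at 69095 bp. Col19a1 ran from -0.196 to 1.09 at 301626 bp and from -0.809 to 0.474 at 168138 bp, Col3a1 74456 bp upstream from -3.61 to 0.78, and the Fn1 exon from -0.735 to 0.366. The second Col5a1 copy ran from -2.37 to 1.58, Col9a3 at 13690 bp from -0.769 to 1.003 and the Col11a1 promoter from -1.51 to 0.89. The cause was not tested. The 4 fragments with an unadjusted p under 0.05 kept their sign in every setting in which they were tested. They were picked by their p in these same libraries, and the settings share most of the data. A kept sign was therefore likely beforehand and adds no support for these differences.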
